A study of Cavia porcellus with 9 samples.

Results

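The genes described here are the Wnt ligands, their receptors, the secreted inhibitors and the central intracellular components, followed in the retina of guinea pigs (Cavia porcellus) reared under green, blue or white light. Members were taken by symbol from the deposited count table: every Wnt, Fzd, Sfrp and Dkk gene with a number, and 13 further genes of the pathway (Lrp5, Lrp6, Ctnnb1, Axin1, Axin2, Lef1, Tcf7l2, Wif1, Ndp, Tspan12, Rspo1, Rspo2 and Rspo3). Of 50 genes that matched, 46 of the 19962 genes in the table had a count in at least 3 libraries and were kept. Wnt1 and Wnt8a had no count in any library, Wnt7a had 9 counts in 1 library and Fzd10 had 8 counts over 2 libraries.

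The animals were males of the Dunkin-Hartley strain, described as tri-color in the labels, on a common light-dark cycle. The green group received green light for 8 weeks, the blue group blue light for 8 weeks and the white group white light for 8 weeks, and all were sampled at 12 weeks of age. Each group has 3 libraries of whole retina, from 2 animal labels: libraries 1 and 2 of green carry animal number 11 (both titled od, the right eye), libraries 2 and 3 of blue carry number 32 and libraries 1 and 2 of white carry number 6. The number 23 occurs in library 1 of blue (labelled 2R-23) and in library 3 of white (labelled R-23), and whether these are the same animal is not stated. Library 1 of green and library 3 of white carry the suffix -B in their titles, whose meaning is not stated either. A p-value here therefore measures the spread between libraries, part of which is a spread between eyes or samples of the same animal. In bulk tissue fewer cells of a type and less RNA per cell cannot be told apart.

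Wnt proteins are secreted, lipid-modified ligands that bind frizzled receptors (Fzd) together with the co-receptors Lrp5 or Lrp6. In the canonical branch this stabilises beta-catenin, the product of Ctnnb1, which enters the nucleus with Lef1 or Tcf7l2 and induces targets such as Axin2; without a ligand, a complex built on Axin1 has beta-catenin degraded. Secreted frizzled-related proteins (Sfrp) and Wif1 bind ligands outside the cell. Dickkopf proteins (Dkk) such as Dkk1 bind Lrp5 and Lrp6, and R-spondins (Rspo) keep receptors at the surface. Norrin, encoded by Ndp, is not a Wnt protein but activates the same branch through Fzd4, Lrp5 and Tspan12, and in species with a vascularised retina it is needed for the growth of retinal vessels. The guinea pig retina is avascular.

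Libraries held 62155041 to 74979806 counts and 15871 to 16145 genes with a count. The label of retina was borne out by its markers: the summed level of 9 rod markers ran from 63667 to 83081 CPM (the count scaled to the TMM-adjusted library size) and that of 8 bipolar cell markers from 1540 to 1678 CPM. Genes of the pigment epithelium, the cell layer behind the retina, differed widely between libraries, with a summed level over 14 markers of 261 to 810 CPM under green light, 576 to 804 in blue and 334 to 860 in white, and Rpe65 from 7.76 to 144 CPM. The summed level of 11 Müller glia markers was 8395 to 9357 CPM under green light, 9568 to 10785 in blue and 8712 to 10474 in white, so that green and blue did not overlap. Levels below are CPM that are not divided by transcript length, so they compare libraries for a gene and not genes with each other.

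None of the members differed between light groups at an adjusted p under 0.05 in edgeR's quasi-likelihood test, in which p-values were adjusted over all 15469 genes tested. The test covered 44 members, since Rspo2 (0 to 13 counts per library) and Dkk2 (0 to 16 counts) were under the filter on low counts. The count of members called was 0 for green against white, where 0.00646% of all genes were called, 0 for blue against white (0.00646%), 0 for green against blue (0%) and 0 for the joint test of the 3 lights (0.00646%). The smallest adjusted p of a member was 0.768, 1, 0.530 and 0.611 in these comparisons. DESeq2 and limma voom also called 0 members in each of them. DESeq2 gave no p-value for Sfrp5 in blue against white, so the gene was not tested there.

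**Figure D1:**
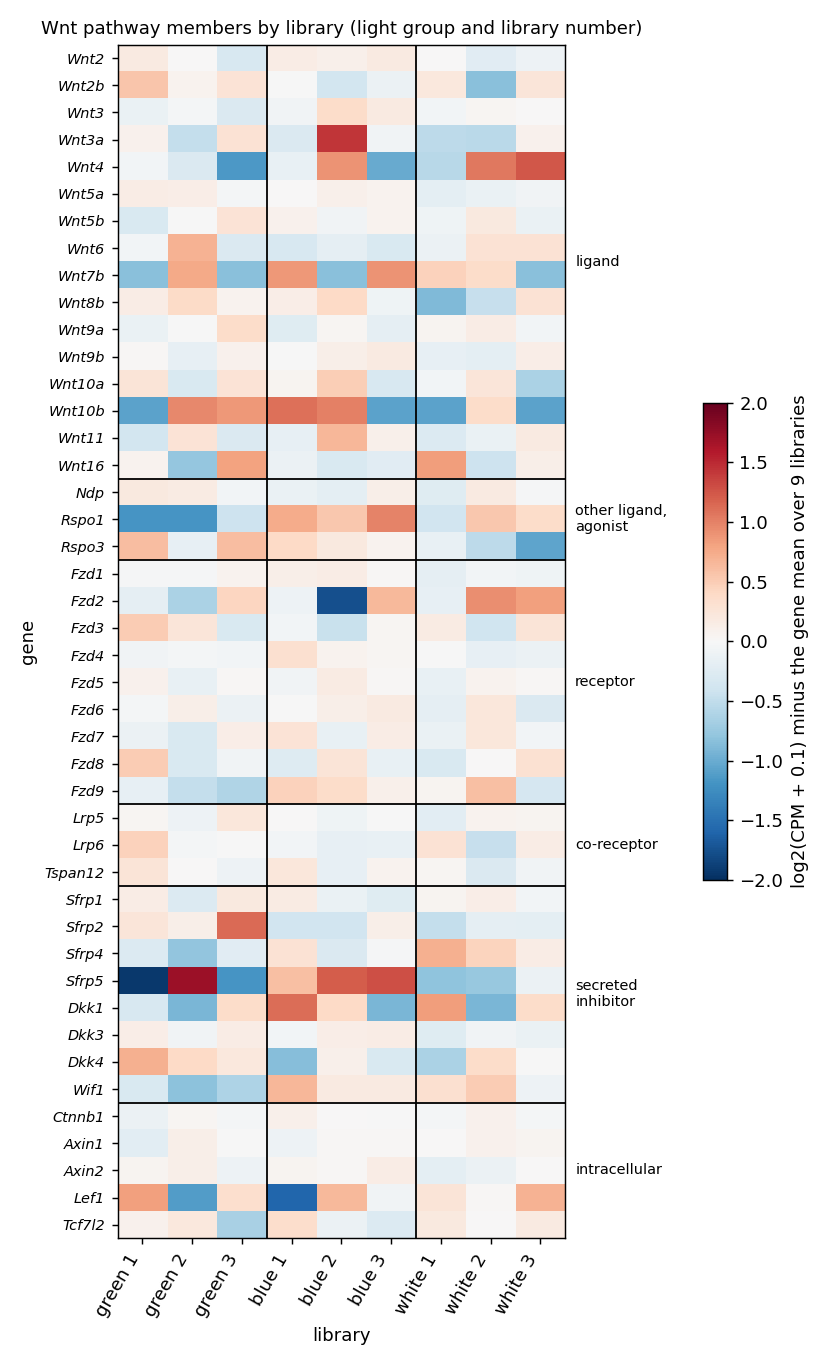
Level of the 44 tested members (rows, by role) in the 9 libraries (columns, by light group), as log2(CPM + 0.1) minus the mean of the gene over the libraries; red is above and blue below that mean. Ctnnb1, Axin1, Fzd1, Fzd5 and Dkk3 are nearly even across the row, while Sfrp5, Lef1, Wnt4, Wnt10b and Fzd2 change from library to library within a light group.

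At an unadjusted p under 0.05 stood 8 of 44 members in green against white (18.2%, where 5.81% of all genes did), 3 higher (3.52% of all genes) and 5 lower (2.29%). In blue against white there were 3 (6.82%, where 4.45% did), 3 higher (2.47% of all genes) and 0 lower (1.98%). In green against blue there were 5 (11.4%, where 7.18% did), 1 higher (4.11% of all genes) and 4 lower (3.06%). The joint test of the lights gave 7 members (where 5.94% of all genes did). By sign alone, 27 of 44 were higher in green than in white (52.4% of all genes were), 28 in blue than in white (51.5%) and 18 in green than in blue (49.4%). When single libraries were left out, these counts ran from 5 to 7 in green against white, 1 to 5 in blue against white, 4 to 8 in green against blue and 4 to 6 in the joint test, and over all alternatives from 3 to 8, 1 to 5, 3 to 8 and 1 to 8. The members were chosen with earlier results of these data known, so these shares are descriptions. The libraries of green and white did not overlap for 6 members (13.6%, against 10.1% of all genes), those of blue and white for 9 (20.5%, against 9.90%) and those of green and blue for 7 (15.9%, against 14.2%). The median log2 difference over the members was 0.05 in green against white, 0.09 in blue against white and -0.04 in green against blue, where the medians over all genes were 0.01, 0.005 and -0.003. Single libraries decide the sign or size of these medians: without library 1 of white the first was -0.0007, without library 3 of white the second was 0.04, and without library 2 of blue the third was 0.01. The first 2 comparisons share the white libraries, and both comparisons of green share the green libraries. Rspo1 is among the lower members in both comparisons of green and among the 7 of the joint test. It is also among the 6 and 7 members without overlap in those comparisons of green. This gene passed the filter on low counts through its blue and white libraries alone, so its low green level was favoured in advance.

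**Figure D2:**
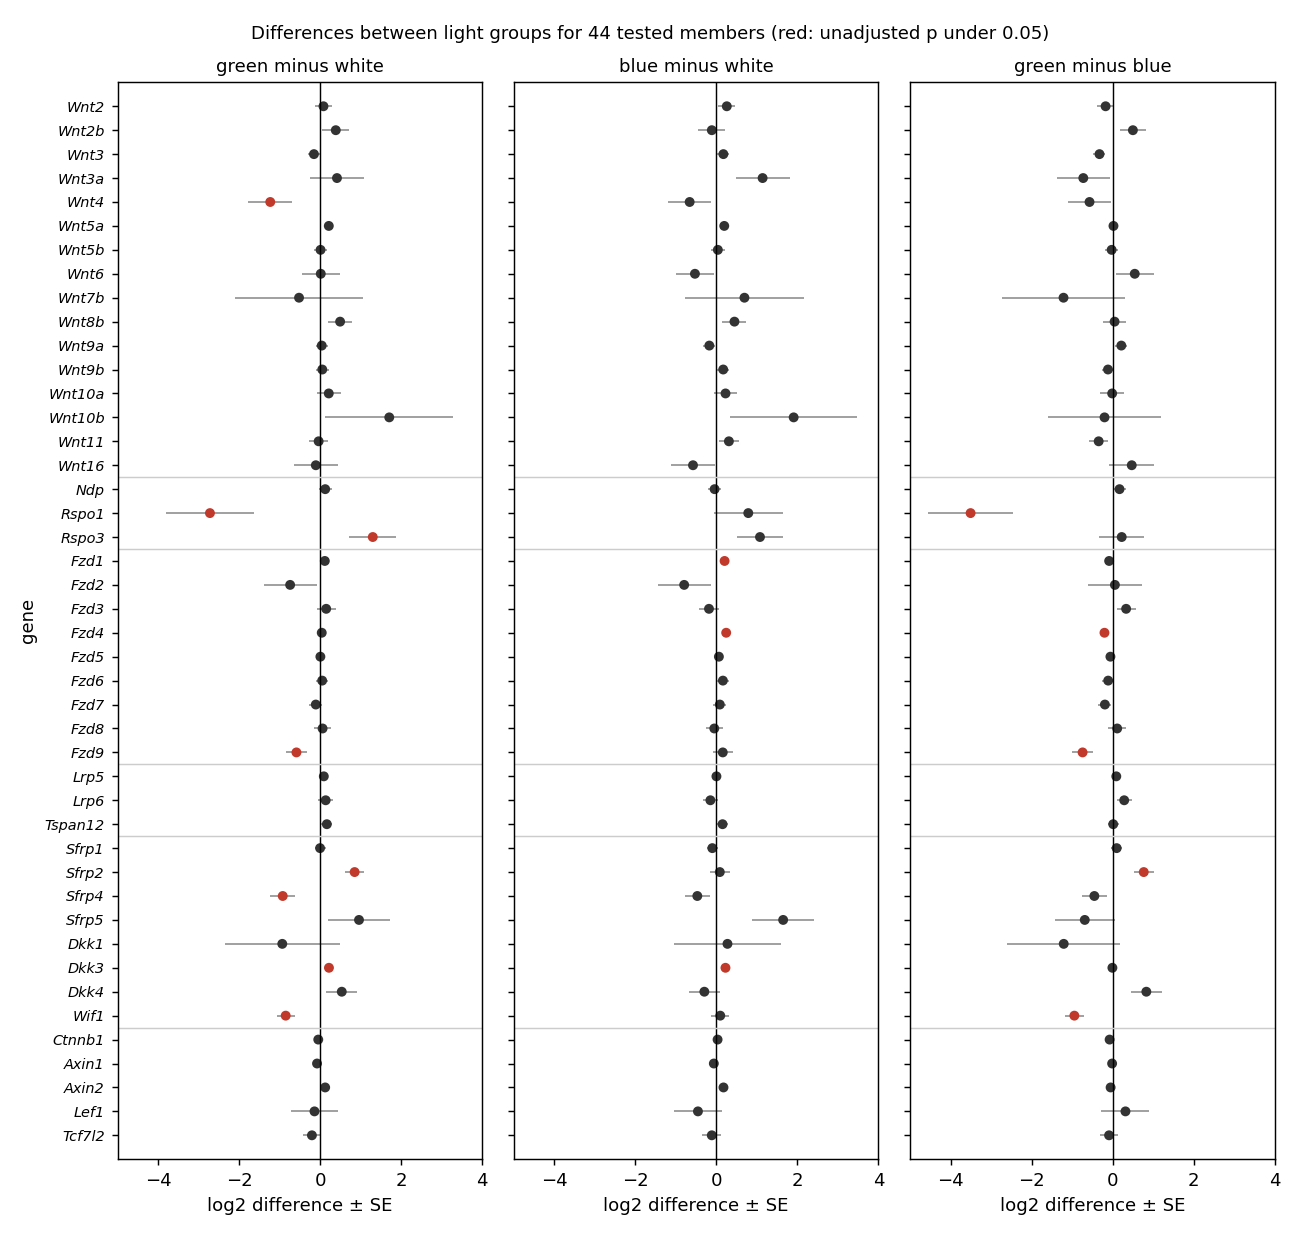
Log2 difference with its standard error (horizontal axis) for each of 44 tested members (vertical axis, by role) in the 3 comparisons; red points have an unadjusted p under 0.05, and no member passed after adjustment over all genes. Wif1 lies left of 0 in both comparisons of green and Sfrp2 right of 0 in both, while Ctnnb1, Axin1 and Fzd5 lie close to 0 in all 3.

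The secreted inhibitors held the members with the smallest p in both comparisons of green. Wif1, which binds Wnt ligands and keeps them from their receptors, was at 3.39, 2.34 and 2.72 CPM under green light, at 6.75, 4.77 and 4.77 CPM under blue and at 5.28, 6.04 and 3.92 CPM under white. All 3 green libraries were thus below all 6 others. The log2 difference was -0.85 ± 0.23 (SE) against white and -0.95 ± 0.23 against blue, and neither passed in edgeR (adjusted p = 0.768 and 0.530). Between blue and white, Wif1 differed by 0.10 ± 0.22. Over all alternatives the difference of Wif1 ran from -1.17 to -0.71 against white and from -1.09 to -0.76 against blue.

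Sfrp2, a secreted frizzled-related protein, had the opposite order. It was at 285, 260 and 530 CPM under green light, at 184, 185 and 262 CPM under blue and at 172, 212 and 211 CPM under white. The green libraries lay above all white ones but touched the range of blue, where library 3 stood just above library 2 of green. The log2 difference was 0.85 ± 0.24 against white and 0.77 ± 0.24 against blue (edgeR adjusted p = 0.768 and 0.621). Library 3 of green carried much of it: without that library the differences were 0.45 and 0.38. Once the pigment epithelium genes entered the model as a covariate, they were 0.65 and 0.53.

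Its relatives had other orders of the groups. Sfrp1 was at 263, 197 and 271 CPM under green light, 267, 215 and 201 CPM under blue and 245, 260 and 227 CPM under white, with all groups overlapping and a log2 difference of -0.001 ± 0.13 between green and white. Sfrp4 was at 0.936, 0.623 and 0.970 CPM under green light, 1.42, 0.922 and 1.13 CPM under blue and 1.93, 1.59 and 1.29 CPM under white. The green libraries of Sfrp4 lay below the white ones, and the blue ones overlapped both groups (log2 difference of green against white -0.92 ± 0.31, edgeR adjusted p = 0.837). Frzb, a further frizzled-related inhibitor outside the list of members, was at 203, 179 and 174 CPM under green light, 236, 244 and 235 CPM under blue and 257, 289 and 170 CPM under white. Green and blue did not overlap for Frzb, whereas library 3 of white lay below every green library (log2 difference of green against blue -0.36 ± 0.15, edgeR adjusted p = 0.671).

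Sfrp5 varied widely between libraries of a light. It was at 0.577, 8.34 and 1.04 CPM under green light, at 3.82, 5.89 and 6.26 CPM under blue and at 1.39, 1.43 and 2.28 CPM under white. The lowest and the highest level of the 9 libraries, 14.4-fold apart, are those of libraries 1 and 2 of green, which carry the same animal number and eye. Blue lay above white without overlap, with a log2 difference of 1.65 ± 0.76 that did not pass (edgeR adjusted p = 1). The error is taken over all 9 libraries, the widely spread green ones included. When only blue and white were fitted, the difference was 1.65 and did not pass either (edgeR adjusted p = 0.166). With the pigment epithelium genes as a planned covariate in the fit of all libraries, it was 1.27. With the summed level of the pigment epithelium markers as a covariate, an alternative chosen after seeing the data, it was 0.81.

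Dkk3, a divergent Dickkopf family member, was at 2089, 1800 and 2102 CPM under green light, at 1832, 2071 and 2114 CPM under blue and at 1610, 1805 and 1736 CPM under white. Blue lay above white without overlap, while library 2 of green was just under library 2 of white. The log2 difference was 0.22 ± 0.09 for green and 0.22 ± 0.09 for blue, each against white (edgeR adjusted p = 0.850 and 1), and -0.01 ± 0.09 between the colours. Dkk4 ranged from 0.491 to 1.64 CPM, with green above blue in every library. Dkk1, the classical blocker of Lrp5 and Lrp6, had at most 22 counts in a library and Dkk2 at most 16. Dkk1 had none in library 2 of green, library 3 of blue and library 2 of white, and Dkk2 none in libraries 2 and 3 of green. For a library with no count the limit, set at 3 counts, is 0.04 to 0.0483 CPM by library.

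**Figure D3:**
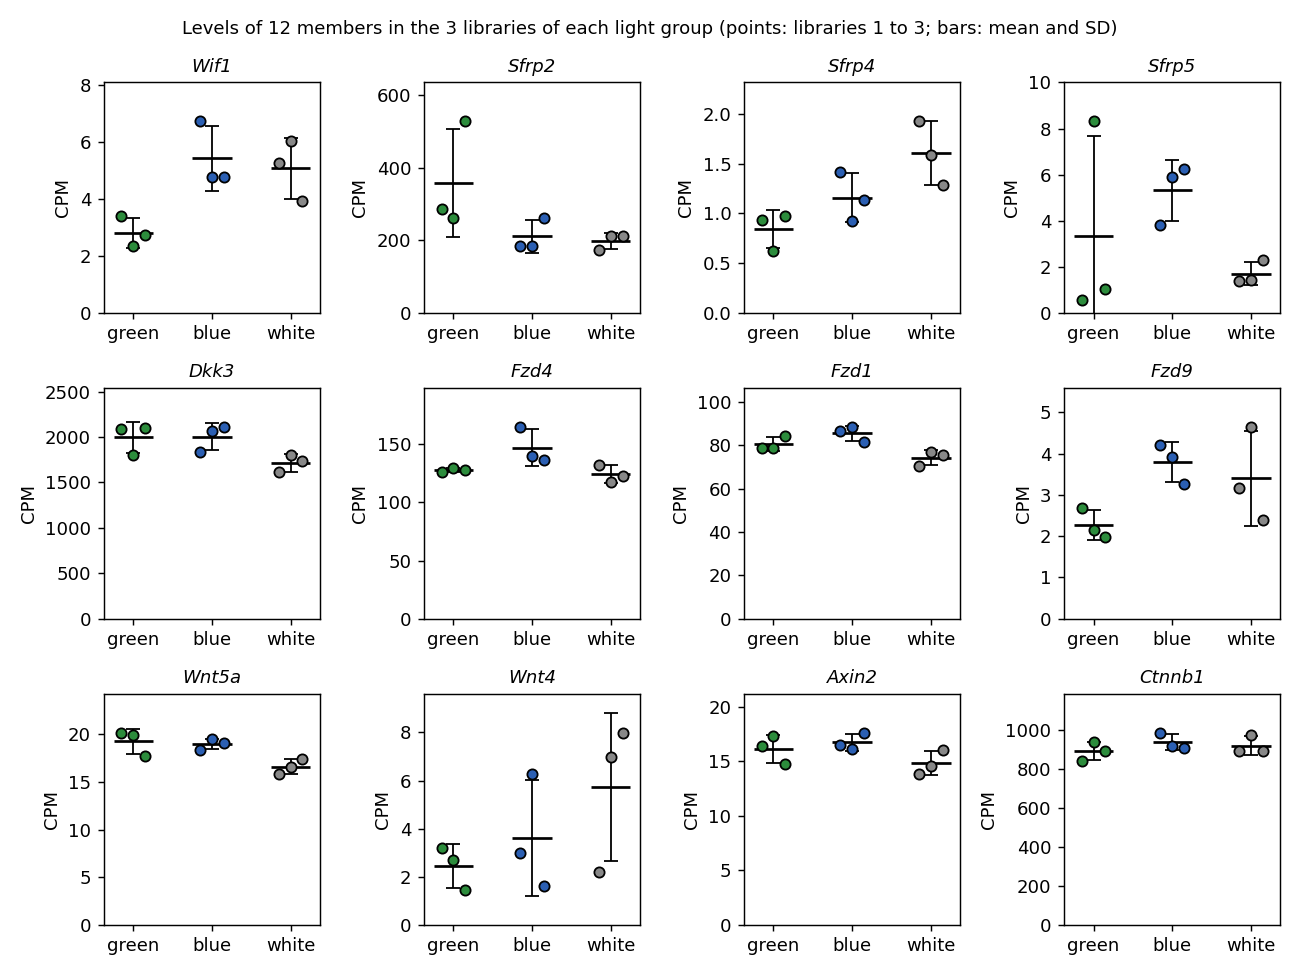
CPM (vertical axis, starting at 0) of 12 members in the libraries of green, blue and white light; points are libraries 1 to 3 from left to right, and bars give the mean and SD of 3 libraries, with the SD of Sfrp5 in green cut at 0. The green points of Wif1 sit under all others, 1 green point of Sfrp2 stands at 530 CPM, the green points of Sfrp5 spread from 0.577 to 8.34 CPM, and those of Ctnnb1 overlap with both other groups.

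Of the 9 frizzled receptor genes, an unadjusted p under 0.05 was reached by 1 in green against white (Fzd9, where 5.81% of all genes did), by 2 in blue against white (Fzd1 and Fzd4, 4.45%) and by 2 in green against blue (Fzd4 and Fzd9, 7.18%). Fzd4, the receptor of Norrin, was at 126, 129 and 127 CPM under green light, at 165, 140 and 136 CPM under blue and at 132, 118 and 123 CPM under white. Every blue library was above every green and white one. The log2 difference was 0.24 ± 0.09 for blue against white and -0.20 ± 0.09 for green against blue (edgeR adjusted p = 1 and 0.686), and 0.04 ± 0.09 for green against white. Library 1 of blue is the highest, and without it the differences were 0.15 and -0.11.

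Fzd1 was at 78.4, 78.7 and 84.3 CPM under green light, at 86.3, 88.5 and 81.6 CPM under blue and at 70.3, 76.9 and 75.6 CPM under white. Both colours lay above white without overlap, blue by a log2 difference of 0.20 ± 0.08 and green by 0.12 ± 0.08 (edgeR adjusted p = 1 and 0.931). Fzd9 was at 2.68, 2.15 and 1.97 CPM under green light, 4.21, 3.92 and 3.26 CPM under blue and 3.17, 4.65 and 2.38 CPM under white. Green was below blue in all libraries and overlapped with white (log2 difference of -0.74 ± 0.26 and -0.58 ± 0.26, edgeR adjusted p = 0.654 and 0.852). With the pigment epithelium level as a covariate the difference from blue was -0.46.

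Fzd5, a receptor used in the development of the optic cup, was at 190, 162 and 182 CPM under green light, at 171, 201 and 183 CPM under blue and at 162, 188 and 182 CPM under white. Its groups overlapped fully, with a log2 difference of 0.01 ± 0.09 between green and white and 0.06 ± 0.09 between blue and white. Of the rest, Fzd3 ranged from 6.14 to 11.9 CPM, Fzd6 from 8.07 to 11.7 CPM, Fzd7 from 9.24 to 13.8 CPM and Fzd8 from 25.4 to 44.5 CPM, each with overlap in all 3 comparisons. Fzd2 had 8 to 86 counts per library and ranged 11.5-fold.

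The genes of the Norrin signal were all detected in every library. Ndp, the ligand, was at 6.68, 6.53 and 5.59 CPM under green light, 5.32, 5.09 and 6.32 CPM under blue and 4.89, 6.59 and 5.76 CPM under white. Lrp5, the co-receptor, was at 68.8, 62.2 and 78.6 CPM under green light, 67.3, 62.8 and 66.8 CPM under blue and 57.5, 70.1 and 69.2 CPM under white. Tspan12, the tetraspanin that joins Norrin to Fzd4, was at 39.3, 33.1 and 30.6 CPM under green light, 38.3, 29.2 and 34.5 CPM under blue and 33.8, 26.9 and 31.1 CPM under white. Groups overlapped for these 3 genes in every comparison, with log2 differences from -0.04 to 0.17.

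Most, but not all, markers of vessels were at very low levels in these libraries. Of 14 markers of endothelium and pericytes, 10 averaged under 1 CPM. Tie1 had counts in a single library and reached 0.0589 CPM, and Cldn5, the tight junction protein of endothelium, reached 0.115 CPM. Emcn reached 0.115, Erg 0.112, Cdh5 0.225 and Rgs5 0.231 CPM at most. The markers at 1 CPM or more were Kdr, Esam, Pdgfrb and Mfsd2a, and Kdr makes up most of the summed level of 177 to 218 CPM under green light, 161 to 197 in blue and 178 to 190 in white. Lrp6, the other co-receptor, ranged from 15.8 to 30.2 CPM, with green above blue in every library and overlap in the comparisons with white.

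The Wnt ligands were mostly at low counts, and of the 16 tested 1, Wnt4 in green against white, reached an unadjusted p under 0.05 (where 5.81% of all genes did), with 0 in blue against white (4.45%) and 0 in green against blue (7.18%). Wnt5a, which acts mainly outside the beta-catenin branch, was at 20.2, 19.9 and 17.7 CPM under green light, at 18.4, 19.5 and 19.1 CPM under blue and at 15.8, 16.6 and 17.4 CPM under white. Both colours lay above white without overlap, by a log2 difference of 0.21 ± 0.10 for green and 0.19 ± 0.10 for blue (edgeR adjusted p = 0.852 and 1). Between the colours the difference was 0.02 ± 0.10.

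Wnt4 was at 3.19, 2.68 and 1.44 CPM under green light, at 2.97, 6.29 and 1.60 CPM under blue and at 2.21, 6.99 and 7.99 CPM under white. All groups overlapped, and libraries of the same animal differed as much as lights: the pair of blue number 32 stood at 6.29 and 1.60 CPM and the pair of white number 6 at 2.21 and 6.99 CPM. The log2 difference of green against white was -1.23 ± 0.54 (edgeR adjusted p = 0.852). Wnt3 was at 6.80, 7.28 and 6.15 CPM under green light, at 7.11, 9.75 and 8.47 CPM under blue and at 7.21, 7.73 and 7.54 CPM under white, with a log2 difference of -0.32 ± 0.15 between green and blue and overlap in every comparison (edgeR adjusted p = 0.696). Without library 2 of blue that difference was -0.21.

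Wnt9a was at 14.2, 15.6 and 20.3 CPM under green light, 13.2, 16.1 and 13.8 CPM under blue and 16.2, 17.5 and 15 CPM under white, and overlapped in every comparison. Wnt5b ranged from 6.79 to 10.2 CPM, Wnt9b from 5.17 to 6.70 CPM and Wnt11 from 5.58 to 11.4 CPM, each overlapping in all comparisons. At lower levels, Wnt2 ranged from 1.67 to 2.40 CPM, with blue above white in every library, and Wnt2b from 0.751 to 2.14 CPM, with green above blue. Wnt8b ranged from 1.33 to 3.36 CPM and Wnt10a from 1.74 to 3.91 CPM, both with overlap. Wnt3a, Wnt6 and Wnt16 stayed under 1 CPM in every library, and Wnt7b and Wnt10b were at 0 in 4 libraries each. Wnt6 was lower in blue than in white in every library, at 23 to 28 against 27 to 39 counts, with ranges that part only once the counts are scaled to CPM.

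The R-spondins, agonists that bind Lgr receptors, were near the limit of detection. Counts of Rspo1 were 0, 0 and 5 under green light, 20, 17 and 24 under blue and 5, 16 and 12 under white. In CPM the green libraries were under all blue and all white ones, and the gene passed the filter through its blue and white libraries alone. Library 3 of green and library 1 of white have the same 5 counts and part only once scaled, at 0.0713 and 0.0737 CPM. The fitted log2 difference of -3.51 ± 1.05 between green and blue depends on the prior count (edgeR adjusted p = 0.614). It rests on the 5 counts of library 3 of green, without which the green group is at 0 and the fitted value was -7.32. Low values of the table are unevenly spread, with 2014 values of 4 and 472 of 3, so that a unit may not be a single fragment. After division by 4 the gene was under the filter. Rspo3 was at 0.475, 0.234 and 0.471 CPM under green light, 0.393, 0.325 and 0.293 CPM under blue and 0.236, 0.159 and 0.0804 CPM under white. Blue was above white in every library and green in all but library 2, which stood just under library 1 of white (log2 difference 1.08 ± 0.58 and 1.30 ± 0.58, edgeR adjusted p = 1 and 0.852). Rspo2 had 13 counts at most.

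Of the members that act inside the cell, 0 of 5 reached an unadjusted p under 0.05 in any comparison, where 5.81%, 4.45% and 7.18% of all genes did, and from so few genes nothing is read. Ctnnb1, which encodes beta-catenin, was at 842, 936 and 893 CPM under green light, at 986, 919 and 908 CPM under blue and at 890, 974 and 892 CPM under white. Its lowest and highest library were 1.17-fold apart, and the log2 differences against white were -0.05 ± 0.07 in green and 0.03 ± 0.07 in blue. Axin1, the scaffold of the degradation complex, was at 65.5, 82.6 and 75.1 CPM under green light, 70.8, 77.3 and 77.2 CPM under blue and 75.9, 80.5 and 79.0 CPM under white, with overlap in every comparison.

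Axin2, a feedback inhibitor and a widely used readout of beta-catenin activity, was at 16.4, 17.3 and 14.8 CPM under green light, at 16.4, 16.1 and 17.6 CPM under blue and at 13.8, 14.6 and 16.0 CPM under white. Blue lay just above white, by a log2 difference of 0.18 ± 0.11, and green overlapped with white at 0.12 ± 0.11 (edgeR adjusted p = 1 and 0.965). Lef1, a DNA-binding partner of beta-catenin, was at 2.30, 0.530 and 1.61 CPM under green light, 0.351, 2.03 and 1.19 CPM under blue and 1.53, 1.29 and 2.09 CPM under white. Its groups overlapped, and the green libraries of animal number 11 held both the highest and nearly the lowest value. Tcf7l2, the other such partner, ranged from 5.25 to 10.7 CPM with overlap in every comparison.

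The spread between libraries of a group followed the level. For the 24 members of at least 5 CPM on average, the median SD of log2 CPM within groups was 0.179, against 0.140 for the 11359 genes of that level. For the 20 members below it the median was 0.608, against 0.445 for 4110 genes. Libraries of the same animal label differed by a median of 0.172 on the log2 scale in green, 0.130 in blue and 0.176 in white over the 24 members, where all genes of that level differed by 0.182, 0.0944 and 0.173. Over all 44 tested members, 6 in green, 6 in blue and 8 in white differed by more than 1 on the log2 scale between these pairs. The largest differences were those of Wnt10b in green and blue and of Dkk1 in white, each with 0 counts in 1 library of the pair. The share of all genes over that limit was not computed.

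The level of pigment epithelium genes was tested as a term beside the light group in edgeR, since it differs between libraries of a group. It was the mean centred log2 level of 14 markers. The count of members called was 0, where 0.00646% of all genes were, and 3 of 44 members (6.82%, where 3.08% of all genes did) reached an unadjusted p under 0.05, 1 with a positive slope (1.73% of all genes) and the others with a negative slope (1.35%): Fzd6 with a slope of 0.24 ± 0.10 log2 units per log2 unit, Wnt16 with -0.98 ± 0.36 and Dkk1 with -3.16 ± 1.36, the last at 22 counts or fewer. Sfrp5 had a slope of 1.12 ± 0.55 that did not pass (edgeR adjusted p = 1) and turned to -0.41 without library 2 of green.

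Wls, outside the members, encodes the carrier that brings every Wnt ligand to the cell surface, and it varied widely. It was at 1.87, 13.4 and 0.942 CPM under green light, at 8.26, 11.8 and 15.2 CPM under blue and at 4.66, 12.6 and 2.96 CPM under white. Its 3 lowest libraries were also the 3 lowest of Rpe65, at 7.76 to 15.1 CPM of the latter, and its slope was 1.85 ± 0.31 (edgeR adjusted p = 0.105). DESeq2 and 5 of the other alternatives called it. Wls did not separate the lights: the log2 difference was -0.33 ± 0.80 for green and 0.80 ± 0.79 for blue, each against white. Porcn, which attaches the lipid to Wnt ligands, ranged from 26.3 to 33.6 CPM with a slope of 0.04 ± 0.09.

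**Figure D4:**
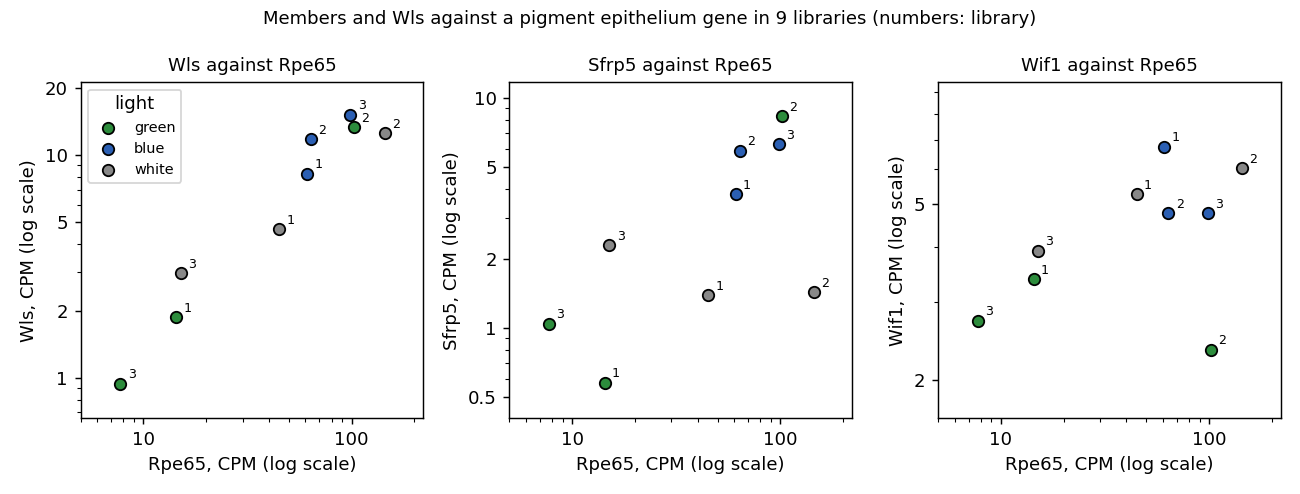
CPM of Wls, Sfrp5 and Wif1 (vertical axes, log scale) against CPM of Rpe65, a pigment epithelium gene (horizontal axes, log scale), in the 9 libraries, coloured by light and numbered by library. Wls climbs with Rpe65 from 0.942 CPM in library 3 of green to 15.2 CPM in library 3 of blue, and Sfrp5 does so apart from the white libraries. The 3 green points of Wif1 are the lowest of the 9.

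By fitted difference the pigment epithelium markers ran lower in green. Of 14, 0 were higher in green than in white, with a median log2 difference of -0.37. Against blue, 1 of 14 was higher in green, with a median of -0.56. At an unadjusted p under 0.05 in edgeR stood 0 of 14 in both comparisons (5.81% and 7.18% of all genes). Their summed level by library was 279, 810 and 261 CPM in green and 403, 860 and 334 CPM in white. Their part in the comparisons of green was not tested beyond the covariate. Library 2 of green had 102 CPM of Rpe65 and the lowest Wif1 of the series, 2.34 CPM. It shares its animal number and eye with library 1, and from 1 library nothing is read. With the pigment epithelium level as a covariate the log2 difference of Wif1 was -0.76 against white and -0.84 against blue. The summed Müller glia markers were lower in green than in blue, and so, by group, were Wif1, Fzd4, Fzd9 and Frzb. Library by library the orders differed. Library 1 of blue had the lowest Müller sum of blue, 9568 CPM, and its highest Wif1 (6.75), Fzd4 (165) and Fzd9 (4.21 CPM). Library 1 of green had the lowest sum of green and its highest Wif1 and Fzd9. In white, library 2 was highest for the sum, Wif1 and Fzd9 and lowest for Fzd4. The part of these markers in the comparison of green and blue was not tested. The summed level of the lens markers was 69.5 to 91.7 CPM in the libraries of green, 47.4 to 84.7 in those of blue and 27.7 to 69.9 in those of white, and that of the ciliary body and iris markers 115 to 139, 134 to 202 and 130 to 201. By summed level of the lens markers, green overlapped white at 1 library and blue at more. For those of the ciliary body and iris it overlapped both. By gene, 9 of 10 lens markers were higher in green than in white, with a median log2 difference of 0.78. In blue, 9 of 10 were higher than in white, with a median of 0.87. At an unadjusted p under 0.05 in edgeR stood 5 of 10 in green against white (5.81% of all genes) and 3 of 10 in blue against white (4.45%). The part of the lens, ciliary body and iris markers in the comparisons of lights was not tested. No list of markers of another cell type had a gene at 0 in every library.

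The rest of the pathway was read from a list of 91 other genes in the table, of which 88 were tested. None passed in edgeR in any comparison of lights (smallest adjusted p = 0.503). At an unadjusted p under 0.05 stood 9 of 88 in green against white (10.2%, where 5.81% of all genes did). In blue against white there were 5 (5.68%, against 4.45%) and in green against blue 7 (7.95%, against 7.18%). In green against white 49 of 88 were higher, in blue against white 49, and in green against blue 40. That is 55.7%, 55.7% and 45.5%, against 52.4%, 51.5% and 49.4% of all genes. The medians were 0.01, 0.01 and -0.01 on the log2 scale.

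Of these genes, Celsr3, an atypical cadherin of planar cell polarity, had the smallest p between green and blue. It was at 176, 197 and 189 CPM under green light, 146, 156 and 146 CPM under blue and 162, 166 and 177 CPM under white. Green was above blue in every library (log2 difference 0.33 ± 0.07, edgeR adjusted p = 0.503), with white between and overlapping green. Lrp4, a relative of Lrp5 and Lrp6, was at 67.0 ± 4.66 CPM under green light (SD, n = 3) and 55.2 ± 1.38 CPM under blue.

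Mapk8, a kinase of the branch outside beta-catenin, was at 59.7, 63.9 and 57.8 CPM under green light, at 109, 109 and 108 CPM under blue and at 55.6, 113 and 117 CPM under white. Libraries thus lay at 55.6 to 63.9 or at 108 to 117 CPM with none between, and library 1 of white stood with the green ones although library 2 carries the same animal number. The log2 difference was -0.85 ± 0.21 between green and blue and -0.66 ± 0.21 between green and white (edgeR adjusted p = 0.551 and 0.837).

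Nkd1, a feedback inhibitor that acts on Dishevelled, was at 34.7, 37.7 and 86.9 CPM under green light, 27.7, 33.4 and 38.8 CPM under blue and 25, 25.5 and 37.6 CPM under white. Its highest library, number 3 of green, was also the highest for Sfrp2. Dkkl1, related to the Dickkopf genes, was at 2.61 ± 0.328 CPM under green light and 1.4 ± 0.328 CPM under white (SD, n = 3), without overlap. Camk2a was at 99.4 ± 5.11 CPM under blue and 83.1 ± 6.18 CPM under white, and Pygo1, a nuclear cofactor of beta-catenin, at 15.2 ± 2.28 against 23.1 ± 7.30 CPM. Lgr4, a receptor of R-spondins, ranged from 222 to 259 CPM, and Znrf3, the ligase that R-spondins block, was at 13.0 ± 0.801 CPM under green light, 14.0 ± 0.831 in blue and 16.0 ± 2.52 in white.

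Genes widely used as targets of beta-catenin gave no call either. Of 18 in the table, 15 were tested. In green against white 8 were higher and 7 lower (52.4% of all genes were higher), and in blue against white 10 and 5 (51.5%). The medians were 0.01 and 0.14 on the log2 scale. At an unadjusted p under 0.05 stood 2 in green against white (13.3%, where 5.81% of all genes did). They had opposite directions, Nkd1 higher and Znrf3 lower in green. In blue against white and in green against blue there were 0 (4.45% and 7.18% of all genes). Some of these genes (Axin2, Lef1, Dkk1) are members. Others (Tcf7, Nkd1, Notum, Rnf43, Znrf3, Lgr5, Apcdd1) are also in the list of other pathway genes, so the lists are not separate.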

How the data were processed

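RNA-seq of whole retina was deposited as 1 table of counts per gene for 9 libraries. The values are whole numbers, while the counting tool, aligner, genome build and use of strand behind the authors' table were not given in the sources used here. Low counts pile on multiples of 4 (2014 values of 4 against 472 of 3), so the deposited count may not be a single fragment. Columns were matched to libraries by name, with 0 columns left unmatched. Library numbers follow accession order and pair nothing.

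Genes passed edgeR's filterByExpr (minimum count 10, minimum total 15), which kept 15469 genes and removed 4493, of them 2697 without a count. Levels are CPM on TMM-scaled library sizes. The 9 libraries were fitted together with edgeR 4.0.16 (R 4.3.3) by the quasi-likelihood F test, and p-values were adjusted by the Benjamini-Hochberg method over all genes tested at a threshold of 0.05. A standard error is the log2 difference divided by the square root of F. DESeq2 1.42.0 and limma 3.58.1 (voom) served as alternatives. The fit was also run on simulated data. Those libraries were drawn independently, without shared animals, so nothing is concluded from them about the error rate of this design. With 62155041 to 74979806 counts per library, a count of 0 has its limit at 3 counts, for counting error only. The biological coefficient of variation was 17.7%.

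The members and gene lists were chosen with earlier results of these data known, so nothing here is independent of them. Each member is named. Values in all libraries are given for the 6 members with the smallest p in each comparison, for a fixed set (Ndp, Fzd4, Lrp5, Tspan12, Ctnnb1, Axin2, Lef1, Dkk3, Sfrp1, Sfrp2, Sfrp5, Wif1, Wnt5a, Fzd5) and for the 2 members of each role with the highest mean. Of the other pathway genes, the 3 with the smallest p per comparison are named, with Frzb, Wls, Porcn, Lgr4 and Znrf3. All 46 symbols occur among the RefSeq gene names of assembly mCavPor4.1. Transcript lengths were not used here.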

Additional observations from a re-analysis of the deposited data

How the results depend on the processing

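No member passed an adjusted p under 0.05 in any comparison under any alternative, and the smallest adjusted p of a member over them was 0.0504 for the joint test, 0.166 for blue against white, 0.0514 for green against blue, 0.131 for green against white and 0.0745 for the pigment epithelium level. For Sfrp5 in blue against white DESeq2 gave no p-value. The number of all genes called moved more than that of the members. In the joint test (1 gene) it was 0 with counts divided by 4, with counts summed per animal label, with voom and with the pigment epithelium level as covariate, 2 with the summed pigment epithelium score or the title suffix -B (library 1 of green and library 3 of white, meaning not stated) as covariate, 12 without both libraries of that suffix, 82 in DESeq2 and 0 to 6 when single libraries were left out. For blue against white (1 gene) it was 0 with division by 4, voom or only the groups compared, 2 with the summed score, 3 with the suffix, 12 without those libraries, 28 in DESeq2 and 0 to 7 when single libraries were left out. For green against blue (0 genes, and 1110 at an unadjusted p under 0.05 in edgeR) it was 1 with only the groups compared or the suffix, 41 in DESeq2 and 0 to 4 when single libraries were left out. For green against white (1 gene) it was 0 with division by 4, voom, only the groups compared or the pigment epithelium level, 10 without the libraries of that suffix, 24 in DESeq2 and 0 to 6 when single libraries were left out. For the pigment epithelium level (1 gene) it was 36 with division by 4, 11 per animal label, 71 in DESeq2, 30 with the light left out, 0 with voom, 25 with no filter, 58 with the summed score, 0 with the suffix or without those libraries and 0 to 107 when single libraries were left out. The slope of Sfrp5 ran from -0.41 to 2.04 when single libraries were left out, and was negative only without library 2 of green. The cause of these shifts was not tested. The summed score and leaving out both suffixed libraries were chosen after seeing the data. Rspo1 and Rspo3 have no value after division by 4, where they fall under the filter. Rspo1 also has no value for green against white when only those groups were fitted. No paired analysis was possible because the labels give no replicate numbers that pair the light groups: the groups share at most the number 23, in library 1 of blue and library 3 of white, and whether it names the same animal is not stated.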
